A study of Mus musculus with 8 samples.

Results

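Cldn5, Slc2a1, Abcb1a and 7 further genes of brain blood vessels, 10 of the 54446 gene identifiers in the deposited count table, were followed in 8 libraries of mouse medial prefrontal cortex. The rule names the genes and uses no measured value: the blood-brain barrier genes Cldn5, Slc2a1 and Abcb1a, the endothelial genes Pecam1, Kdr, Flt1 and Ly6c1, and the pericyte genes Pdgfrb, Rgs5 and Vtn. The genes were nonetheless chosen with earlier results of these data known. All 10 were found in the table through the GENCODE M21 symbols of their Ensembl identifiers, and all 10 passed the filter on low counts that left 17636 genes for testing. The study altered Ino80e, which codes for part of the INO80 chromatin remodeller, by stereotaxic delivery of adeno-associated virus to this region of cortex, per its design text. Poly(A) RNA was sequenced from 4 libraries labelled Ino80e overexpression and 4 libraries labelled wild type. Not given in the sources used here are the virus's promoter, the strain and age of the mice, and whether wild-type mice had a control virus. Separate mice are not stated for the libraries, so p-values reflect the spread among libraries, part of which may be technical.

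Brain capillaries are lined by endothelial cells that are sealed to each other by tight junctions and carry transporters for glucose, amino acids and drugs. Vascular endothelial growth factor acts on these cells through its receptors on their surface. Pericytes wrap the capillaries from outside, are recruited by platelet-derived growth factor from the endothelium, and share the vessel wall's basement membrane with them. Larger vessels carry smooth muscle cells in place of pericytes, and together these wall cells are called mural cells.

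Library totals ran from 44762378 to 60490153 counts. Levels below are CPM, the read count scaled to a library's effective size (TMM scaling). Differences are log2(overexpression/wild type) from edgeR's quasi-likelihood test of all 17636 genes, and pass where the Benjamini-Hochberg adjusted p is under 0.05. Ino80e itself stood at 74.1, 23.4, 23.3 and 45.04 CPM in the overexpression-labelled libraries, against 22.3, 19.5, 25.5 and 20.7 CPM in the wild-type libraries, so overexpression-labelled replicates 2 and 3 lay inside the wild-type range and directions below are those of the labels. Neuron genes, Snap25 among them, were abundant in every library of this cortical tissue, with summed levels over 10 genes of 14313 to 15830.0 CPM in overexpression-labelled libraries, against 13849.6 to 15768 CPM in wild-type libraries. Choroid plexus and ependymal genes, which mark the choroid plexus and the lining of the ventricles, summed to 119 CPM in overexpression replicate 3, 1137 CPM in wild-type replicate 4 and 117 CPM in wild-type replicate 3, and to 14.6 to 33.4 CPM in the other 5 libraries. Ttr alone held 90.6, 982 and 90.8 CPM of the first 3 sums. Not all genes of the list followed, with Foxj1 at 7.13, 11.2 and 7.30 CPM there and at 3.99 to 10.7 CPM in the other 5 libraries. Libraries also differed in a trend with GC content. The slope of log2 CPM per 10 points of GC content was 0.035 to 0.090 in overexpression-labelled libraries and -0.13 to 0.021 in wild type, each taken relative to the mean of the 8 libraries over genes of at least 5 CPM. A fit with each library's GC trend as an offset is given beside the members that it moves by over 1.5 times or across 0.

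No member passed the threshold over all genes, and the members' median log2 fold change was 0.05, with 6 members above 0 and 4 below, where 50.5% of all genes were above 0. Over all 17636 genes 6 passed (0.034% of those tested), 0.0113% as higher and 0.0227% as lower, and the median was 0.0016. DESeq2, which called 0.159% of all genes, and limma-voom, which called 0.0113%, also called 0 of the 10 members, and with the GC offset edgeR called 0 members and 0.0284% of all genes. With that offset the members' median was -0.035, with 4 members above 0 and 6 below. At an unadjusted p under 0.05 edgeR gave 3 members, Slc2a1 higher and Kdr and Rgs5 lower, where 10.7% of all genes met that mark, 5.24% as higher and 5.43% as lower. With the GC offset it gave 2 members, Kdr and Abcb1a, where 5.11% of all genes met it. The groups did not overlap for 2 members (5.84% of all genes), with Slc2a1 higher (2.82% of all genes) and Rgs5 lower (3.02% of all genes). With 10 genes, such shares are coarse. In tissue RNA, fewer cells of a type and less RNA per cell cannot be told apart.

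**Figure D1:**
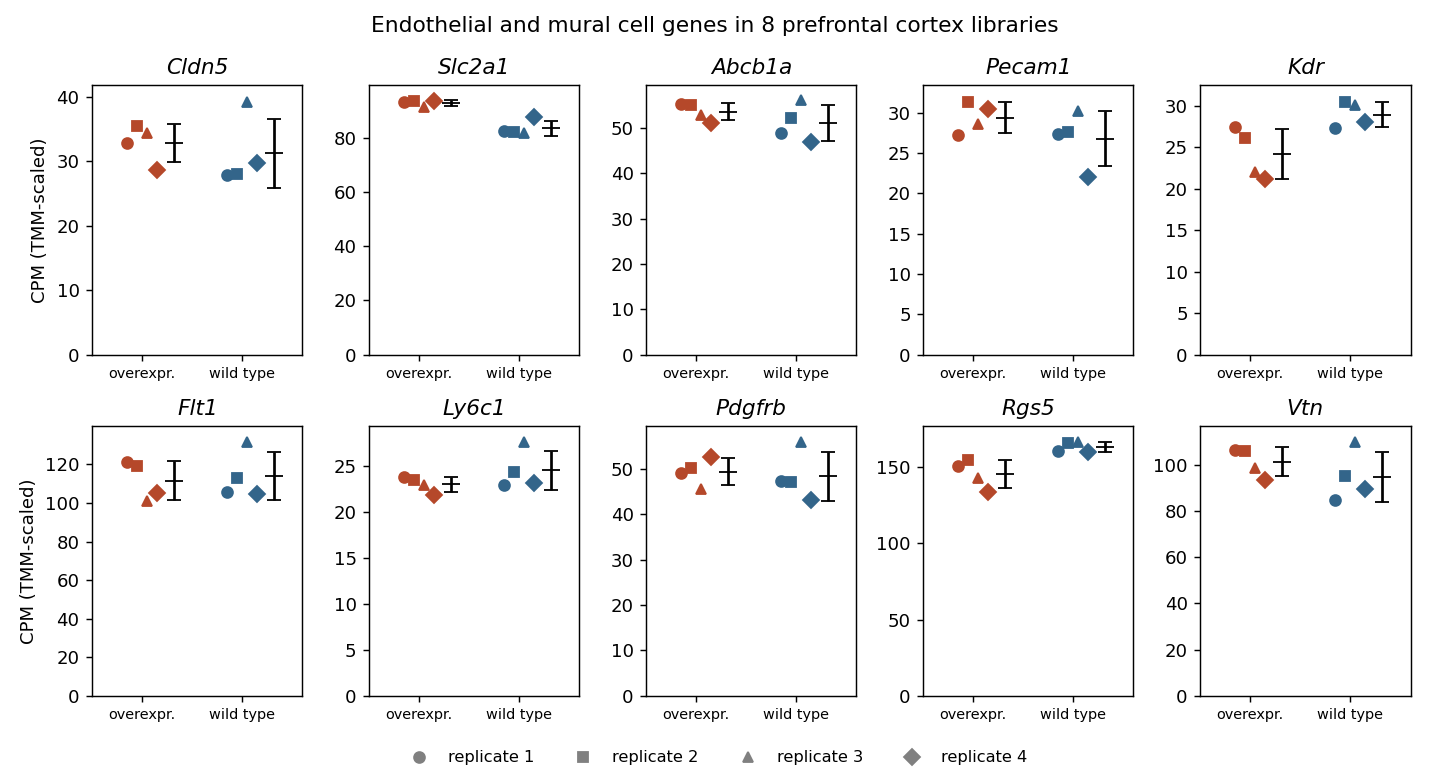
Level of each of the 10 genes in each library (y axis, CPM after TMM scaling, from 0), with the 4 libraries labelled overexpression at the left and the 4 wild-type libraries at the right of each panel. Points are libraries, marked by replicate number, and the black bar is the mean ± SD. The groups overlap in 8 panels and are apart for Slc2a1, higher, and Rgs5, lower.

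Cldn5, which encodes the main tight junction protein between brain endothelial cells, stood at 32.9, 35.4, 34.5 and 28.7 CPM in the overexpression-labelled libraries, against 27.8, 28.1, 39.2 and 29.8 CPM in the wild-type libraries. Wild-type replicate 3 held the highest level and wild-type replicates 1 and 2 the lowest, so the groups overlapped over the whole range of overexpression. The difference did not pass (log2 0.07, SE 0.1, edgeR adjusted p = 0.83), was log2 0.20, SE 0.08, edgeR adjusted p = 0.27 without wild-type replicate 3, and its 95% interval ran from -9.37% to 21.96% relative to wild type. Cldn5 (ENSMUSG00000041378) lies on the plus strand of chromosome 16, from 18776847 to 18778262 of GRCm38. With the GC offset its sign turned (log2 -0.03, SE 0.089, edgeR adjusted p = 0.99), and at 60.5% its transcript has the highest GC content of the 10.

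Slc2a1 encodes the glucose transporter GLUT1, which carries glucose across the barrier and is also made by astrocytes. It stood at 93.3, 93.5, 91.2 and 93.6 CPM in the overexpression-labelled libraries, against 82.5, 81.9, 81.7 and 87.6 CPM in the wild-type libraries. All 4 libraries labelled overexpression were above all 4 wild-type ones, and they lay within 2.38 CPM of each other. The means were 92.9 ± 1.15 CPM in overexpression-labelled libraries, against 83.4 ± 2.78 CPM in wild type (SD, n = 4 each), higher by 11.3% in the point estimate, with a 95% interval of 3.70% to 19.6%, and the difference did not pass over all genes (log2 0.16, SE 0.05, edgeR adjusted p = 0.31). With the GC offset the difference was log2 0.10, SE 0.047, edgeR adjusted p = 0.97, and its unadjusted p was no longer under 0.05. Slc2a1 (ENSMUSG00000028645) lies on the plus strand of chromosome 4, from 119108711 to 119137983 and shares 105 exonic bases with the antisense gene Gm12868, whose reads cannot be told apart from its own if the counting did not use strand.

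Abcb1a, the mouse P-glycoprotein gene whose product pumps drugs out of the endothelium, stood at 55.3, 55.1, 52.9 and 51.1 CPM in the overexpression-labelled libraries, against 48.9, 52.1, 56.2 and 46.9 CPM in the wild-type libraries. The groups overlapped, with wild-type replicate 3 the highest library and wild-type replicate 4 the lowest. The difference did not pass (log2 0.07, SE 0.061, edgeR adjusted p = 0.7), with an interval of -3.82% to 14.5%. Abcb1a (ENSMUSG00000040584) lies on the plus strand of chromosome 5, from 8660077 to 8748575, and shares 553 exonic bases with Gm42686 on the other strand. Reads of both genes cannot be told apart there if the counting did not use strand. With the GC offset Abcb1a was at log2 0.12, SE 0.06, edgeR adjusted p = 0.97, with an unadjusted p under 0.05. Its paralog Abcb1b, which is 87.6% identical over the coding sequence, was far lower, at 3.30 ± 0.970 CPM in overexpression-labelled libraries, against 3.35 ± 0.563 CPM in wild type (SD, n = 4 each). Of all stretches of 50 bases in the Abcb1a transcript 15.5% also occur in Abcb1b, so a small part of the reads could fit both.

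Of the 4 endothelial genes 1 was above 0 and none passed. Pecam1, an adhesion molecule at the contacts of endothelial cells, stood at 27.2, 31.4, 28.6 and 30.4 CPM in the overexpression-labelled libraries, against 27.3, 27.6, 30.1 and 22.00 CPM in the wild-type libraries. Wild-type replicate 4 lay below all other libraries and the other 7 overlapped (log2 0.13, SE 0.085, edgeR adjusted p = 0.57; interval -2.86% to 23.8%). Pecam1 (ENSMUSG00000020717) lies on the minus strand of chromosome 11, from 106654217 to 106750628. 

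Kdr and Flt1 encode the receptors VEGFR2 and VEGFR1, of which the first carries most of the growth signal and the second binds the ligand tightly and can act as a trap. Kdr stood at 27.5, 26.1, 22.1 and 21.2 CPM in the overexpression-labelled libraries, against 27.3, 30.5, 30.1 and 28.01 CPM in the wild-type libraries. The libraries labelled overexpression fell into a higher pair, replicates 1 and 2, and a lower pair, replicates 3 and 4, and only replicate 1 reached the wild-type range. The means were 24.2 ± 3.07 CPM in overexpression-labelled libraries, against 28.96 ± 1.55 CPM in wild type (SD, n = 4 each), lower by 16.5% in the point estimate with a 95% interval of -25.9% to -5.79%, and the difference did not pass over all genes (log2 -0.26, SE 0.084, edgeR adjusted p = 0.31). The GC offset left it as it was (log2 -0.25, SE 0.082, edgeR adjusted p = 0.86), and its transcript has a GC content of 49.4%. Ino80e was above the wild-type range in replicates 1 and 4. Without overexpression replicates 2 and 3 the Kdr difference was log2 -0.25, SE 0.1, edgeR adjusted p = 0.65, and without replicates 1 and 4 it was log2 -0.27, SE 0.096, edgeR adjusted p = 0.67. Over all 6 pairs left out it ran from -0.42, without replicates 1 and 2, to -0.11, without replicates 3 and 4, the pairs that Kdr's own values set apart.

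Flt1 stood at 121, 119, 101 and 105 CPM in the overexpression-labelled libraries, against 106, 113, 132 and 105 CPM in the wild-type libraries. Its highest library was wild-type replicate 3, its lowest overexpression replicate 3, and the groups overlapped (log2 -0.03, SE 0.075, edgeR adjusted p = 0.92; interval -12.2% to 9.39%). Flt1 reads per Kdr read numbered 4.41, 4.57, 4.57 and 4.96 in overexpression-labelled libraries, against 3.88, 3.71, 4.38 and 3.74 in wild type. This ratio, chosen after the values were seen and given with no test, was higher in each library labelled overexpression than in any wild-type one, though the gap to wild-type replicate 3 was small. Kdr (ENSMUSG00000062960) lies on the minus strand of chromosome 5, from 75932827 to 75978458, and Flt1 (ENSMUSG00000029648) lies on the minus strand of chromosome 5, from 147561604 to 147726011.

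Ly6c1 encodes a small surface protein anchored by a lipid, found on the endothelium of the mouse brain and on some blood cells. It stood at 23.7, 23.4, 22.8 and 21.8 CPM in the overexpression-labelled libraries, against 22.9, 24.3, 27.6 and 23.1 CPM in the wild-type libraries. Wild-type replicate 3 was again the highest and the other 7 libraries spanned 21.8 to 24.3 CPM (log2 -0.09, SE 0.078, edgeR adjusted p = 0.68; interval -16.2% to 4.89%). Ly6c1 (ENSMUSG00000079018) lies on the minus strand of chromosome 15, from 75044018 to 75048830. Its neighbour Ly6c2, known from monocytes, is 97.7% identical over 396 coding bases, with 9 differences, and 31.7% of the 50-base stretches of the Ly6c1 transcript occur in Ly6c2 as well. Ly6c2 received 10, 4, 6 and 9 reads in overexpression-labelled libraries, against 0, 0, 0 and 4 in wild type, so nearly all reads that were assigned to the pair went to Ly6c1. The counting of reads that match both genes was not stated in the labels or the table. The first 120 coding bases of both, from the GENCODE M21 transcripts, show how close together or far apart the differences lie. Capitals mark the 6 positions at which they differ.
Ly6c1: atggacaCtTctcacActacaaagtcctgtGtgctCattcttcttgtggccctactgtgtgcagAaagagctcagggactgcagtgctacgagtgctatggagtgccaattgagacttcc
Ly6c2: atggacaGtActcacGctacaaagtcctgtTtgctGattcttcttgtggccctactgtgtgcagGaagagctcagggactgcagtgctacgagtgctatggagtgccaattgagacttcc

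Of the pericyte genes, Pdgfrb encodes the receptor for the platelet-derived growth factor that endothelial cells release. It stood at 49.1, 50.2, 45.6 and 52.7 CPM in the overexpression-labelled libraries, against 47.3, 47.03, 55.9 and 43.1 CPM in the wild-type libraries. The extremes were both wild-type libraries, replicate 3 above and replicate 4 below, and the difference was small (log2 0.03, SE 0.071, edgeR adjusted p = 0.9; interval -7.68% to 13.02%). Its sign turned with the GC offset (log2 -0.04, SE 0.066, edgeR adjusted p = 0.99). Pdgfrb (ENSMUSG00000024620) lies on the plus strand of chromosome 18, from 61045150 to 61085061.

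Rgs5 encodes a regulator of G protein signalling that is abundant in pericytes. It stood at 151, 155, 143 and 134 CPM in the overexpression-labelled libraries, against 161, 166, 167 and 160.2 CPM in the wild-type libraries. All 4 libraries labelled overexpression were below all 4 wild-type ones, which were within 6.68 CPM of each other, and overexpression replicate 4 was the lowest. The means were 146 ± 9.36 CPM in overexpression-labelled libraries, against 163 ± 3.34 CPM in wild type (SD, n = 4 each), lower by 10.9% in the point estimate with a 95% interval of -17.3% to -3.99%, and the difference did not pass over all genes (log2 -0.17, SE 0.052, edgeR adjusted p = 0.31). With the GC offset it was smaller (log2 -0.08, SE 0.051, edgeR adjusted p = 0.97), and at 41.1% its transcript has the lowest GC content of the 10. Rgs5 (ENSMUSG00000026678) lies on the plus strand of chromosome 1, from 169655501 to 169695813.

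Vtn encodes vitronectin, an adhesive protein of blood and matrix that brain pericytes secrete. It stood at 106, 106, 98.7 and 93.4 CPM in the overexpression-labelled libraries, against 84.8, 94.99, 109.7 and 89.5 CPM in the wild-type libraries. Wild-type libraries were both the highest, replicate 3, and the lowest, replicate 1, and the difference did not pass (log2 0.09, SE 0.069, edgeR adjusted p = 0.63; interval -3.39% to 17.9%). It was log2 0.02, SE 0.065, edgeR adjusted p = 0.99 with the GC offset, and the transcript has a GC content of 55.3%. Without wild-type replicate 3 it was log2 0.17, SE 0.06, edgeR adjusted p = 0.21, and without wild-type replicate 1 log2 0.04, SE 0.069, edgeR adjusted p = 0.88. Vtn (ENSMUSG00000017344) lies on the plus strand of chromosome 11, from 78499091 to 78502324.

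**Figure D2:**
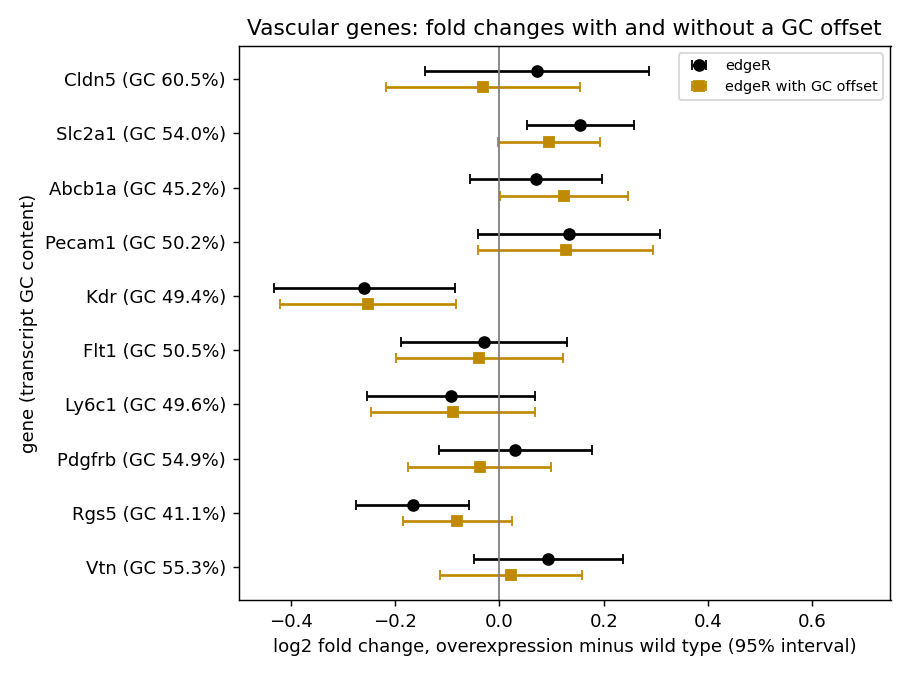
Log2 fold change of each gene, overexpression minus wild type (x axis), with its 95% interval, from edgeR without (black circles) and with (ochre squares) an offset for each library's GC trend. GC content of the transcript stands beside each name on the y axis. The offset moves Cldn5 and Pdgfrb across 0 and Rgs5, Slc2a1 and Vtn towards 0, moves Abcb1a away from 0, and leaves Kdr at -0.25.

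Slc2a1, Rgs5 and Kdr had the 3 lowest p of the members and Flt1 is the partner receptor of Kdr, so the 250 bases before their RefSeq transcription starts on GRCm38.p6 are shown, each 5′ to 3′ on the strand of the gene. Promoters of 8 of the 10 members were found in the RefSeq table. Capitals mark matches, on either strand, to TATAAA (the TATA box), GGGCGG (the GC box), ACGTG (the core of the hypoxia response element) and GGAAGT (a core bound by ETS factors). No marked base belongs to more than 1 of these motifs.
Slc2a1 chr4:119108495-119108744 (plus strand): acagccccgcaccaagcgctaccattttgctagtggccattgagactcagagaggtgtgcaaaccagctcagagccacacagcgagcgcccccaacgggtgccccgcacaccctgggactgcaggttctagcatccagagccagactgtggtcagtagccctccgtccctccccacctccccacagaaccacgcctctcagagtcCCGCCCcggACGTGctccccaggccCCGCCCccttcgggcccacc
Rgs5 chr1:169655251-169655500 (plus strand): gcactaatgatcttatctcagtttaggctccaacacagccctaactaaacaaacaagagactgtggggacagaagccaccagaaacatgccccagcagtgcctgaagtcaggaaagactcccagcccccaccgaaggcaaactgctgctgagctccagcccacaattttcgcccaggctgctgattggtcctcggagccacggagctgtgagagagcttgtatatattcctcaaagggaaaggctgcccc
Kdr chr5:75978456-75978705 (minus strand): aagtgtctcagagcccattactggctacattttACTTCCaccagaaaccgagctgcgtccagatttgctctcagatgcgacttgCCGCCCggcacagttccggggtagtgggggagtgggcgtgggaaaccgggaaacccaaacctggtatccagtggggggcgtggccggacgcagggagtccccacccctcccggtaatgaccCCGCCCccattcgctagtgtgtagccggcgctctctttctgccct
Flt1 chr5:147726012-147726261 (minus strand): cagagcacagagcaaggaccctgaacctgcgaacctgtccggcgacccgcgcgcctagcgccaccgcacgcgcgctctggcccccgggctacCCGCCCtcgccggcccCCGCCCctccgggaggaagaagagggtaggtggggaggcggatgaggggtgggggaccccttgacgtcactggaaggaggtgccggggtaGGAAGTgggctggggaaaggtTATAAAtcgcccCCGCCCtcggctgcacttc

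The Slc2a1 window held 2 GC boxes and 1 hypoxia core, and the Rgs5 window none of the 4 motifs. The window of Kdr held 2 GC boxes and 1 ETS core. That of Flt1 held 3 GC boxes, 1 ETS core and 1 TATA box. Of 32851 promoter windows of this length in the table, 32.7% held the GC box, 16.6% the hypoxia core, 19.7% the ETS core and 12.4% the TATA box, so each of these matches is common. GC content of the windows was 66.4% for Slc2a1, 53.6% for Rgs5, 61.6% for Kdr and 70.4% for Flt1.

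Per length, the order of the 10 genes was the same in both groups. Levels are CPM per kilobase of all annotated exons, which can be longer than the transcripts present. Vtn was highest, at 49.8 ± 3.08 in overexpression-labelled libraries, against 46.7 ± 5.33 in wild type (SD, n = 4 each, as in the rest of this paragraph). Rgs5 followed at 32.03 ± 2.06 and 35.96 ± 0.735, Slc2a1 at 26.5 ± 0.328 and 23.8 ± 0.794, and Cldn5 at 23.2 ± 2.09 and 22.1 ± 3.81, each in overexpression and then wild type. Slc2a1 and Cldn5 overlapped in wild type, where Cldn5 varied more. Ly6c1 stood at 13.7 ± 0.506 and 14.6 ± 1.29. Abcb1a (9.78 ± 0.358 and 9.31 ± 0.735), Pdgfrb (9.02 ± 0.540 and 8.83 ± 0.986) and Flt1 (8.26 ± 0.754 and 8.43 ± 0.921) overlapped each with the next in both groups and have no clear order. Pecam1 (4.72 ± 0.302 and 4.30 ± 0.550) and Kdr (2.68 ± 0.340 and 3.21 ± 0.172) were the lowest and lay apart from each other.

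Most of the 10 genes were high together in 1 library of the wild-type group. Wild-type replicate 3 held the highest level of 7 of the 10 genes, among them genes of all 3 roles. Its mean shift from the wild-type average was 0.15 on the log2 scale, where shifts were -0.064 to 0.073 in overexpression-labelled libraries and -0.087 to -0.0015 in the other wild-type libraries. Erythrocyte genes summed to 108 to 148 CPM in overexpression-labelled libraries, against 232 CPM in that library and 108 to 126 CPM in the other wild-type ones. Smooth muscle genes summed to 92.7 to 121 CPM in overexpression-labelled libraries, against 147 CPM in that library and 99.5 to 120.2 CPM in the other wild-type ones. Astrocyte genes, which are not vascular, were also high in that library, with a mean shift of 0.11. Their shift was -0.048 to -0.017 in the other wild-type libraries and -0.032 to 0.13 in overexpression-labelled libraries. The part of vessel or blood content in these values was not tested. Without that library the members' median log2 fold change was 0.11, with 7 above 0, and no member passed.

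**Figure D3:**
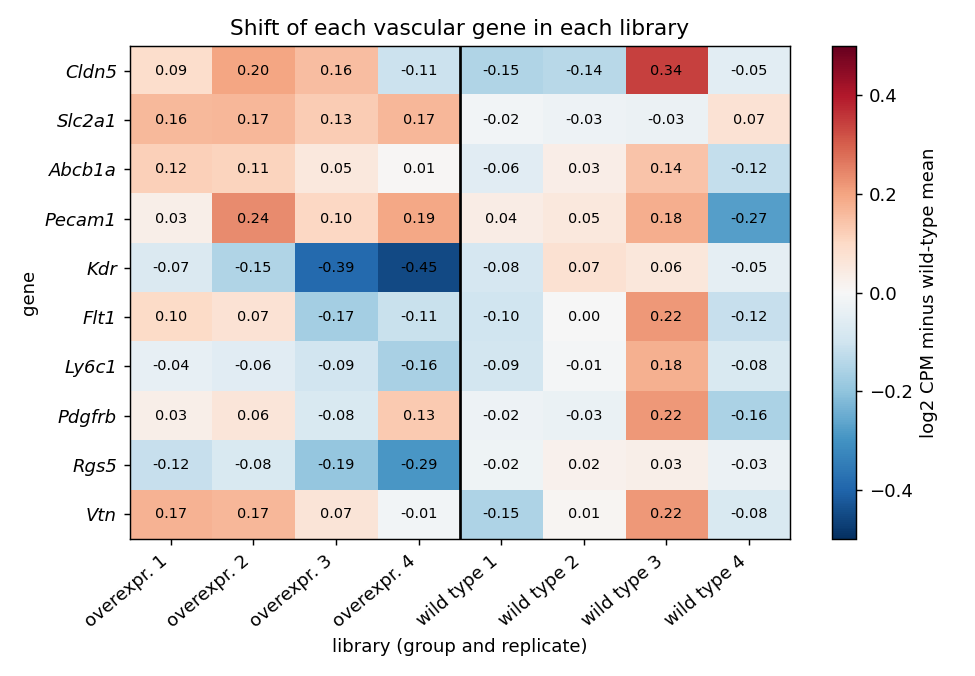
Log2 CPM of each gene (rows) in each library (columns) minus its mean over the 4 wild-type libraries, printed and coloured (red above, blue below), with the overexpression-labelled libraries left of the line. Wild-type replicate 3 is red for 9 of the 10 genes, Slc2a1 is red in all 4 libraries labelled overexpression, and Kdr is lowest in overexpression replicates 3 and 4.

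Within groups, 36 of the 45 pairs of members had a positive correlation of log2 CPM over the 8 libraries, taken as deviations from the group means, with a median of 0.60. Values of 1 library share its depth and scaling, so these are descriptions, and they were not set against pairs of other genes. The closest pairs were Ly6c1 with Vtn (0.98), Abcb1a with Ly6c1 (0.94), Abcb1a with Vtn (0.92) and Flt1 with Vtn (0.91), and Kdr with Rgs5 stood at 0.89. The 9 negative pairs were the 9 that include Slc2a1, lowest with Pecam1 (-0.76). Without wild-type replicate 3, left out after seeing the data, 32 pairs were positive with a median of 0.29, the Ly6c1 and Vtn value was 0.97, that of Kdr and Rgs5 was 0.89, and 6 of the 13 negative pairs included Slc2a1.

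Among 14280 other genes of at least 1 CPM, those whose log2 CPM over the 8 libraries was most like the mean of the 7 barrier and endothelial members were Eng (Pearson 0.97), Ndrg2 (0.96), Glul (0.96), Acot11 (0.95) and Epas1 (0.95). Eng encodes endoglin, an endothelial co-receptor of the TGF-beta family, and Epas1 a hypoxia-inducible factor of endothelium, while Glul encodes glutamine synthetase, an astrocyte enzyme. Those most like the mean of the 3 pericyte members were Tlr4 (0.96), Uaca (0.95), Ndrg2 (0.94), Eng (0.94) and Fam53c (0.94). By rank (Spearman) Ndrg2 stood at 0.79 with that mean, against 0.93 to 0.98 for the others. The best of so many genes over 8 points is high by selection.

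The wider set of vascular genes was also described list by list. Of 20 other barrier genes 11 were above 0 and 9 below, with a median log2 fold change of 0.0065. Only 1 passed, as lower, where 0.0227% of all genes passed as lower. This was Tfrc, the transferrin receptor gene, which brings iron across the barrier and is also expressed by neurons. It stood at 101, 108, 115 and 116 CPM in the overexpression-labelled libraries, against 139.9, 143, 129 and 134 CPM in the wild-type libraries, with no overlap (log2 -0.31, SE 0.055, edgeR adjusted p = 0.037), and missed with the GC offset (log2 -0.21, SE 0.053, edgeR adjusted p = 0.56; GC content of 39.8%). DESeq2 also called 1 gene of this list and limma-voom 0. Slc3a2 and Slc7a5 encode the chains of the large neutral amino acid transporter. They stood at 128 ± 4.07 CPM in overexpression-labelled libraries, against 115 ± 1.64 CPM in wild type (SD, n = 4 each) and at 102 ± 2.82 CPM in overexpression-labelled libraries, against 93.7 ± 4.92 CPM in wild type (SD, n = 4 each), and neither passed (log2 0.15, SE 0.049, edgeR adjusted p = 0.31 for the first and log2 0.12, SE 0.052, edgeR adjusted p = 0.4 for the second). Like Slc2a1, Slc3a2 did not overlap between the groups. Slco1c1, a thyroid hormone transporter gene named after its values were seen, was the other gene with an unadjusted p under 0.05 as lower (log2 -0.16, SE 0.068, edgeR adjusted p = 0.4). With the GC offset Slc7a5 (log2 0.042) and Slco1c1 (log2 -0.093) no longer had an unadjusted p under 0.05, while Slc3a2 (log2 0.10) still did.

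None of 22 other endothelial genes passed the adjusted threshold, in edgeR, DESeq2 or limma-voom, and 1 had an unadjusted edgeR p under 0.05. Their median was 0.028, with 15 above 0. That one was Ramp2, an adrenomedullin receptor subunit gene that overlaps Vps25 on the same strand, at 13.04, 13.2, 8.86 and 9.91 CPM in the overexpression-labelled libraries, against 8.49, 9.10, 9.85 and 8.40 CPM in the wild-type libraries (log2 0.33, SE 0.13, edgeR adjusted p = 0.38). It was high in overexpression replicates 1 and 2 only. With the GC offset Ramp2 was at log2 0.24, and 0 of the 22 genes had an unadjusted p under 0.05. Vwf, the clotting factor gene of larger vessels, stood at 47.7 ± 8.93 CPM in overexpression-labelled libraries, against 36.9 ± 7.09 CPM in wild type (SD, n = 4 each, with log2 0.37, SE 0.19, edgeR adjusted p = 0.54). Per length, the highest of the list were Itm2a (log2 -0.02, SE 0.077), Ly6a (log2 0.02, SE 0.18), which encodes the surface antigen Sca-1, and Cd34 (log2 -0.06, SE 0.054), which encodes a sialomucin, and none of them passed. Of 10 endothelial activation genes 5 were tested and none passed, with a median of 0.085, 3 above 0 and 2 below. Lrg1 had the lowest p of the 5 (log2 0.56, SE 0.28, edgeR adjusted p = 0.47). The adhesion genes Vcam1 (log2 -0.06, SE 0.078) and Icam1 (log2 0.20, SE 0.22) were also among the tested genes.

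Of 15 genes for growth factors of the VEGF, angiopoietin and PDGF families and their other receptors none passed, 1 had an unadjusted p under 0.05 and the median was -0.062. Vegfa, the main ligand of Kdr, stood at 46.2 ± 3.88 CPM in overexpression-labelled libraries, against 48.2 ± 4.26 CPM in wild type (SD, n = 4 each, with log2 -0.06, SE 0.07, edgeR adjusted p = 0.78), and Pdgfb, the ligand of Pdgfrb, at 38.5 ± 2.66 CPM in overexpression-labelled libraries, against 39.5 ± 4.01 CPM in wild type (SD, n = 4 each, with log2 -0.04, SE 0.073, edgeR adjusted p = 0.88). Vegfb, a ligand of Flt1, stood at 55.7 ± 3.97 CPM in overexpression-labelled libraries, against 50.2 ± 1.92 CPM in wild type (SD, n = 4 each, with log2 0.15, SE 0.06, edgeR adjusted p = 0.4), and the semaphorin and VEGF co-receptor gene Nrp1 at 26.5 ± 1.19 CPM in overexpression-labelled libraries, against 29.7 ± 3.37 CPM in wild type (SD, n = 4 each, with log2 -0.17, SE 0.08, edgeR adjusted p = 0.47). With the GC offset Vegfb, whose transcript has a GC content of 62.6%, was at log2 0.04. Of 15 Notch and Wnt genes of vessels none passed, with a median of 0.12 that was 0.023 with the GC offset. Notch3, the Notch receptor of mural cells, was at log2 0.23, SE 0.082 and Notch1 at log2 0.16, SE 0.071, both with an unadjusted p under 0.05. With the GC offset Notch3 was at log2 0.13 and Notch1 at log2 0.075, and 0 of the 15 genes met that mark.

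Of 14 other pericyte genes none passed, 1 in each direction had an unadjusted p under 0.05, and the median was -0.018. Ifitm1, an interferon-inducible gene, stood at 1.92, 1.82, 0.794 and 1.66 CPM in the overexpression-labelled libraries, against 0.869, 0.726, 0.766 and 0.951 CPM in the wild-type libraries (log2 0.90, SE 0.32, edgeR adjusted p = 0.34), low in overexpression replicate 3 and higher in the other libraries of that label. Ndufa4l2, a hypoxia-inducible mitochondrial gene, stood at 3.23, 3.16, 2.23 and 2.45 CPM in the overexpression-labelled libraries, against 4.72, 4.27, 3.43 and 3.05 CPM in the wild-type libraries (log2 -0.48, SE 0.2, edgeR adjusted p = 0.4), and shares exonic bases with Shmt2 on the other strand. Cspg4 (log2 0.09, SE 0.08), which encodes the proteoglycan NG2, and Mcam (log2 -0.09, SE 0.1), which encodes an adhesion molecule, did not pass. Of 9 tested smooth muscle genes none passed and none had an unadjusted p under 0.05. Their median was -0.065, with all 9 below 0, where 50.5% of all genes were above 0. Mean shifts from the wild-type average were -0.29, -0.44, 0.11 and 0.054 in overexpression-labelled libraries, against -0.27, 0.13, 0.37 and -0.23 in wild type. The highest of these was wild-type replicate 3. The GC offset gave a median of -0.14 and Acta2 turned, its log2 values being -0.0020 without and 0.0040 with the offset. Acta2, the smooth muscle actin gene, stood at 29.3 ± 4.56 CPM in overexpression-labelled libraries, against 29.4 ± 5.96 CPM in wild type (SD, n = 4 each) and Myh11, a smooth muscle myosin gene, at 31.98 ± 3.72 CPM in overexpression-labelled libraries, against 33.4 ± 9.02 CPM in wild type (SD, n = 4 each). Of 10 basement membrane genes none passed, 2 had an unadjusted p under 0.05 as higher, Lamb2 (log2 0.15, SE 0.066) and Lama5 (log2 0.21, SE 0.1), and the median of 0.079 was 0.038 with the GC offset. With that offset 0 of the 10 had an unadjusted p under 0.05. Sparc, a matrix glycoprotein gene, was at log2 0.12, SE 0.06 and Col4a2, which encodes a collagen of the capillary wall, at log2 0.04, SE 0.068. All counts over these lists are set against the 0.034% of genes past the adjusted threshold and the 10.7% with an unadjusted p under 0.05.

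**Figure D4:**
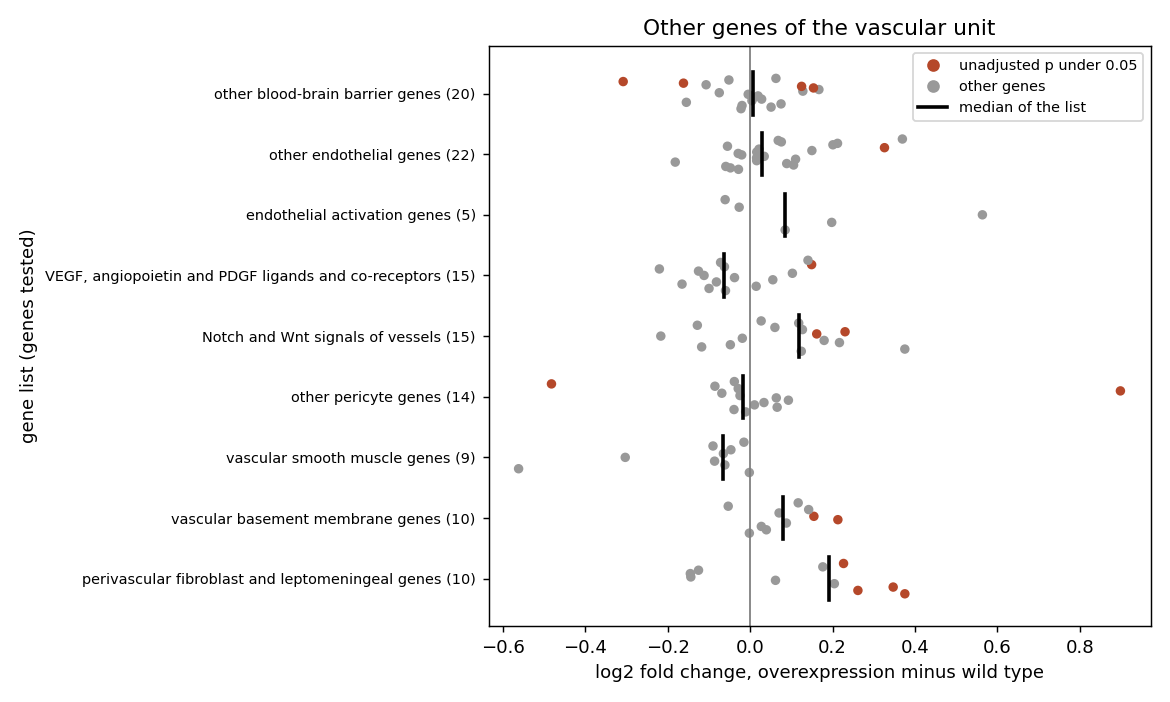
Log2 fold change, overexpression minus wild type (x axis), of each tested gene of 9 lists of the vessel wall and its surroundings (y axis, number of genes tested in brackets). Red points have an unadjusted edgeR p under 0.05, grey points do not, and black bars are list medians. The medians lie between -0.065 and 0.19, and the leftmost point of the first row is Tfrc at -0.31.

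Markers of other cells were read beside these values. Astrocyte genes, whose endfeet cover the vessels, summed to 7212 to 8318 CPM in overexpression-labelled libraries, against 7271 to 8413 CPM in wild type, with 0 of 10 past the adjusted threshold and Gfap at log2 0.48, SE 0.16. Microglia genes summed to 433 to 551 CPM and 413 to 473 CPM in the same order, with 7 of 10 above 0. Of these genes 4 were higher at an unadjusted p under 0.05, where 5.24% of all genes were. With the GC offset 1 of the 10, Cx3cr1, met that mark, where 5.11% of all genes did. The microglia median was log2 0.16 without and 0.13 with the offset. Microglia shifts were highest in overexpression replicates 1 and 2 (0.21 and 0.35), which are also the replicates with the higher Kdr and Flt1 of that label. Oligodendrocyte genes summed to 4481 to 6497 CPM and 5402 to 6500.1 CPM, with the lowest value in overexpression replicate 1. The part of these cells in the vascular values was not tested.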

How the data were processed

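The deposited table holds raw read counts per Ensembl gene, 1 column for each of the 8 libraries. STAR 2.7.10, featureCounts 2.0.3 and Trimmomatic 0.39, and the builds mm10 and GRCm38, are listed by the submitters' processing notes without their roles. Libraries were strand-specific and made from poly(A) RNA, per the labels' protocols. Not given in the sources used here are the strand setting and how reads matching several genes were counted. Groups and replicate numbers came from the sample titles. Symbols, coordinates, exonic length and transcript GC content came from GENCODE M21 (GRCm38), where 54409 identifiers had a symbol.

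Counts were filtered with filterByExpr, scaled by TMM (trimmed mean of M-values) and tested in edgeR 4.0.16 (R 4.3.3, robust quasi-likelihood F test, Benjamini-Hochberg over 17636 genes). The SE is the fold change over the root of F, and 95% intervals use the t quantile of the moderated degrees of freedom. The common biological coefficient of variation was 12.9%. Alternatives were other scalings and filters, DESeq2 1.42.0, limma-voom (limma 3.58.1), no robust estimation, the replicate block, a spline offset on GC content with 5 degrees of freedom, and leaving out single libraries and pairs of libraries labelled overexpression. Between libraries, chi-square per degree of freedom was 9.53 or more, so none was a copy of another.

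The members, the gene lists and the alternatives were chosen with earlier results of these data known, so no p is adjusted over a list and no list is tested as a set. Named are all members, of each list some of the 3 genes with the lowest p and the 3 of the highest level per length, close paralogs, genes overlapping a member and the 5 genes most like the members' mean. Slco1c1 and Slc6a20a were named outside this rule, after their values were seen.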

Additional observations from a re-analysis of the deposited data

Results flagged for a closer look

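In each group of 4 libraries, values were marked where 1 library stood far from the other 3 relative to the group's range, in 66 groups of member levels, list sums and ratios, of which chance alone would mark about 1 in 20. Slc2a1 was marked in both groups. Overexpression replicate 3 held 91.2 CPM, below 93.3 to 93.6 CPM in the other 3 libraries of that label, and wild-type replicate 4 held 87.6 CPM, above 81.7 to 82.5 CPM in the other wild-type libraries. The ratio of Rgs5 to Pdgfrb reads was 2.54 in overexpression replicate 4, against 3.07 to 3.14 in the other libraries of that label.

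Choroid plexus and ependymal genes summed to 119 CPM in overexpression replicate 3, against 23.6 to 33.4 CPM in the others of that label, and to 1137 CPM in wild-type replicate 4, against 14.6 to 117 CPM in the other wild-type libraries. Ttr alone held 90.6 CPM of the first sum and 982 CPM of that in wild-type replicate 4. Erythrocyte genes summed to 232 CPM in wild-type replicate 3, against 108 to 126 CPM in the other wild-type libraries. Oligodendrocyte genes summed to 4481 CPM in overexpression replicate 1, against 6165 to 6497 CPM in the others of that label.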

How the results depend on the processing

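No member passed the adjusted threshold in any of the 24 alternatives. Abcb1a, Kdr, Ly6c1, Pecam1, Rgs5, Slc2a1 and Vtn kept their direction in all of them. Cldn5 turned with the GC offset (-0.031), with the replicate block and GC offset together (-0.026) and without overexpression replicates 2 and 3 (-0.021). With single libraries left out, Cldn5 ran from 0.021 (without wild-type replicate 1 or 2) to 0.20 (without wild-type replicate 3), Vtn from 0.044 (wild-type replicate 1) to 0.17 (wild-type replicate 3), Pecam1 from 0.050 (wild-type replicate 4) to 0.20 (wild-type replicate 3), Abcb1a from 0.031 (wild-type replicate 4) to 0.12 (wild-type replicate 3), Ly6c1 from -0.12 (wild-type replicate 1) to -0.029 (wild-type replicate 3), Flt1 from -0.071 to 0.048 and Pdgfrb from -0.021 to 0.11. Kdr (-0.33 to -0.20), Rgs5 (-0.20 to -0.13) and Slc2a1 (0.14 to 0.18) moved by less than 1.5 times from their values in the main test (-0.26, -0.17 and 0.16). With pairs of overexpression libraries left out, Rgs5 ran from -0.24, without replicates 1 and 2, to -0.094, without replicates 3 and 4. Flt1 turned without overexpression replicate 3 (0.017), wild-type replicate 3 (0.048) and overexpression replicates 3 and 4 (0.081). Pdgfrb turned with the GC offset (-0.038), that offset with the replicate block (-0.035), without overexpression replicate 4 (-0.0019), wild-type replicate 4 (-0.021), and overexpression replicates 1 and 4 (-0.014) or 2 and 4 (-0.030). The cause was not tested. The members' median, reported as 0.050, ran from -0.035 with the GC offset, where its sign turned, to 0.11 without wild-type replicate 3. The mean shift of the members in single libraries had an SD of 0.091 within groups, which is not an error of that median.

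The number of genes called over the whole table, 6 in the main test, was 83 with no low-count filter, 28 in DESeq2, 2 in limma-voom, 2 without robust estimation, 1 with the replicate block and 2 with the block and GC offset. It was 1 to 8 when single libraries were left out. Without overexpression replicates 1 and 2 it was 11, without 1 and 3 it was 3, without 1 and 4 it was 6, without 2 and 3 it was 1, without 2 and 4 it was 3 and without 3 and 4 it was 23. The labels give no sign that a replicate number pairs libraries, the same-numbered libraries' deviations correlated by -0.051 to 0.027, and 0 of 4 overexpression libraries correlated best with their own number. Members had 1028 or more counts in every library, so depth limits them little. The limits are the 4 libraries per group, the GC trend and the strand setting.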

Other observations

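Genes of perivascular fibroblasts and the leptomeninges, the cells that sheathe larger vessels and the brain surface, had a median log2 fold change of 0.19 over 10 genes, with 7 above 0. None passed the adjusted threshold in edgeR, DESeq2 or limma-voom, and 4 had an unadjusted edgeR p under 0.05 as higher (5.24% of all genes). These were the fibrillar collagen genes Col1a1 (log2 0.38, SE 0.13), Col3a1 (log2 0.35, SE 0.13) and Col1a2 (log2 0.26, SE 0.1) and the transporter gene Slc6a20a (log2 0.23, SE 0.11), named after its values were seen. Col3a1 stood at 6.73, 7.54, 6.35 and 6.39 CPM in the overexpression-labelled libraries, against 5.52, 4.63, 5.75 and 5.31 CPM in the wild-type libraries, with no overlap, and was at log2 0.31 with the GC offset. Of 7 perivascular macrophage genes none passed or had an unadjusted p under 0.05, and their summed level was 9.51 to 12.3 CPM in overexpression-labelled libraries, against 7.33 to 13.5 CPM in wild type.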
